A study of Mus musculus with 20 samples.

Results

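The expression of 48 genes of S and M phase was followed in C2C12, a line of mouse myoblasts. On withdrawal of growth factors these cells fuse into muscle fibres, and bone morphogenetic proteins turn them towards an osteoblast fate instead. The list holds 24 genes of DNA replication and 24 of mitosis. A gene was taken from the probe set that carries its symbol and no other in the platform annotation, and from the brightest such probe set on average where it had several, as Fen1, Pole and Rrm2 did. In this way 45 of the 48 genes were measured, 22 of replication and 23 of mitosis, among 22180 genes in all. Rfc4 and Ccne2 shared their probe sets with another gene (Eif4a2 and Ints8), Ccnb1 was named on no probe set, and these 3 genes have no value here.

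All cells were C2C12 grown in medium with fetal bovine serum, plated, and given fresh medium with or without an agent on the next day. The sources used here do not give the time until extraction. The 20 Affymetrix arrays comprised recombinant BMP4 at 10, 100 and 300 ng/ml (2 arrays each), the compounds 942, 178 and 181 at 6.25, 12.5 and 25 µM (1 array per dose), methanol, named in the protocol beside the compounds and taken as their vehicle (3 arrays), and untreated cells (2 arrays). Sample titles carry the numbers 10 to 17 and 18 to 29, taken here as 2 runs, both of which begin with untreated cells. The first run (8 arrays) holds the first array of untreated cells, of methanol and of every BMP4 dose, and all of compound 942. The second run (12 arrays) holds the second array of each of these groups, another array of methanol, and all of compounds 178 and 181. Compound 942 and the first array of BMP4 at 300 ng/ml were labelled by a method called Affyexpress, and the other 16 arrays by the standard method. Whether arrays of a group stem from separate cultures is not stated, so the p-values measure only the spread between these arrays, and that spread may be technical.

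DNA replication starts at origins on which Cdc6 and Cdt1 load the MCM helicase in G1. Cdc45 and the GINS complex then activate the helicase, and the clamp Pcna holds the polymerases on the template. Transcription of these genes is switched on at the G1/S border by E2F factors. Mitotic genes are transcribed later, in G2, under Foxm1, NF-Y and the MuvB complex with B-Myb, which acts through CHR elements. Myoblasts leave the cell cycle when they differentiate, and both groups of genes then fall.

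Promoters of members were examined for motifs of these factors. RefSeq windows (build GRCm38.p6) were present for 37 of the 48 members. The 250 bases before each start site were searched on both strands for letters of E2F type (TTTGGCG, besides the forms TTTCCCG, and also TTTGCCG, and likewise TTTCGCG), for the NF-Y type CCAAT, and for letters of CHR type (TTTGAA, besides the form TTCGAA), and overlapping matches were allowed. NF-Y type letters occurred in 16 of 18 windows of mitosis genes (88.9%) and in 13 of 21 windows of replication genes (61.9%), against 33.8% of the 32851 windows of all genes. CHR type letters occurred in 7 of the 18 mitosis windows (38.9%) and 5 of the 21 replication windows (23.8%), against 17.1% of all windows. Every one of the 7 mitosis windows with CHR type letters also held CCAAT, and windows with both made up 6.02% of all windows. E2F type letters showed the opposite balance, with 7 of 21 replication windows (33.3%) and 3 of 18 mitosis windows (16.7%), against 5.51% of all windows. Mcm7 and Fen1 have 2 windows each, which were counted separately. A match is a description of letters in a window and no evidence of a bound factor.

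The windows printed here are those of the 3 replication and the 3 mitosis genes with the steepest fall over the BMP4 doses among those that hold a motif, so that the letters can be read beside the values given for these genes further on. Motif letters are in capitals, and each sequence runs 5′ to 3′ on the strand of its gene up to the base before the start site. Mcm5 lies at chr8:75109259-75109508 (plus strand), Cdc6 at chr11:98907901-98908150 (plus strand) and Mcm3 at chr1:20820313-20820562 (minus strand). Kif11 lies at chr19:37376132-37376381 (plus strand), Kif23 at chr9:61946800-61947049 (minus strand) and Cenpe at chr3:135212313-135212562 (plus strand).
Mcm5: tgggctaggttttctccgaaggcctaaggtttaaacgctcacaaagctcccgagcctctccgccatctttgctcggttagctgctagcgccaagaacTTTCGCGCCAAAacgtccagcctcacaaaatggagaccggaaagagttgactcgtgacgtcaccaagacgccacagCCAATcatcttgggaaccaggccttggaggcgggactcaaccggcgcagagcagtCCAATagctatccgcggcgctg
Cdc6: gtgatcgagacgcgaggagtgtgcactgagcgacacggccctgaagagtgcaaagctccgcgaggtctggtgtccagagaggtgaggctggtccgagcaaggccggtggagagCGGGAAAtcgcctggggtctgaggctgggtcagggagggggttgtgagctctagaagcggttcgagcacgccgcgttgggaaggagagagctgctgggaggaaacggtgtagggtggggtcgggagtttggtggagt
Mcm3: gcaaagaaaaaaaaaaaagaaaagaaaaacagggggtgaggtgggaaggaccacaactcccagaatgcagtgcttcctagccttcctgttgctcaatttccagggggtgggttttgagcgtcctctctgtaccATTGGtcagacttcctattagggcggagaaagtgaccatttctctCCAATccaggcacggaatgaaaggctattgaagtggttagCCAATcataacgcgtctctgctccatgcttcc
Kif11: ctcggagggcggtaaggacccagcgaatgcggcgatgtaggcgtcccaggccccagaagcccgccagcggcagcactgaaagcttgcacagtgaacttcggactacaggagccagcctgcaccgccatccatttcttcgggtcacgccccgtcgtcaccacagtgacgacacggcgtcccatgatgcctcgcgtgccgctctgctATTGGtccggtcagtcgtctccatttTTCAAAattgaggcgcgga
Kif23: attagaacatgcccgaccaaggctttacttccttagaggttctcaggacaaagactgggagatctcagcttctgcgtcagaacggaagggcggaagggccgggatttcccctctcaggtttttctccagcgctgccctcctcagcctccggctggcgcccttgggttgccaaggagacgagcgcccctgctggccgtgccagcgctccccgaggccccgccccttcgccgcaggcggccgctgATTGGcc
Cenpe: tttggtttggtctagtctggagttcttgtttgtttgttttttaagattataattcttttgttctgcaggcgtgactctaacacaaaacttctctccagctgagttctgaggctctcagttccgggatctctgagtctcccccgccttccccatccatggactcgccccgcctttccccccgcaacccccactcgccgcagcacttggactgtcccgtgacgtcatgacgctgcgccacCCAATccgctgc
Mcm5 held a pair of overlapping E2F type matches that begin 153 and 148 bases before the start, and CCAAT 77 and 22 bases before it. Cdc6 held an E2F type match 137 bases before its start and no CCAAT, while Mcm3 held 3 NF-Y type matches and no E2F type match. Kif11 held an NF-Y type match 45 bases and a CHR type match 19 bases before the start. Kif23 and Cenpe held an NF-Y type match 7 and 12 bases before the start.

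All 45 members were brighter on average than the median gene: their mean log2 signals over the 20 arrays lay between 5.64 and 10.15, and the median of all gene means was 5.43. Array medians lay between 4.93 and 5.05. The myoblast markers Myod1 (8.95 to 10.95) and Des (10.61 to 11.70) were bright in every array, while Pecam1 of endothelium (at most 5.02), Ptprc of leukocytes (at most 3.82) and Epcam of epithelium (at most 3.92) were dim. Other markers of these lists differed from the ones named. Cd68 of macrophages reached 6.17, and Krt8 and Cdh1 of epithelium reached 6.12 and 5.67. The myoblast marker Cdh15 ranged from 6.335 to 10.08. None of the 4 endothelial and 4 epithelial markers was called in any BMP4 comparison, and of 4 macrophage and leukocyte markers 1 was called, at 300 ng/ml against methanol. Differentiating muscle markers were high in untreated cells. In bulk RNA, fewer cells in a phase and less RNA per cell cannot be told apart.

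The mitosis genes stood higher than in the controls at 10 and 100 ng/ml of BMP4 and near or below them at 300 ng/ml, while most helicase genes of replication stood below the controls at 300 ng/ml. Against the untreated array of its own run, the median difference of the 23 mitosis genes was 0.48 and 0.23 on the log2 scale at 10 ng/ml (first run, then second run) and 0.25 and 0.49 at 100 ng/ml. Each of these 4 arrays had all 23 mitosis genes above the untreated array. At 300 ng/ml the median was 0.10 in the Affyexpress array of the first run, with 21 of 23 above, and -0.14 in the standard array of the second run, with 2 of 23 above. The 22 replication genes had medians of 0.29 and 0.05 at 10 ng/ml, 0.00 and 0.29 at 100 ng/ml, and -0.09 and -0.34 at 300 ng/ml. The replicate SD, a measure of the spread between arrays of a group, was 0.18 for the replication median and 0.17 for the mitosis median. This SD is that of an array by itself, while each median above is a difference from an untreated array. It therefore cannot decide whether the replication medians of the 2 runs at 10 and at 100 ng/ml differed beyond the spread. Methanol arrays stood slightly above untreated cells in both lists (medians 0.08, 0.07 and 0.12 for replication, 0.04, 0.03 and 0.10 for mitosis).

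**Figure D1:**
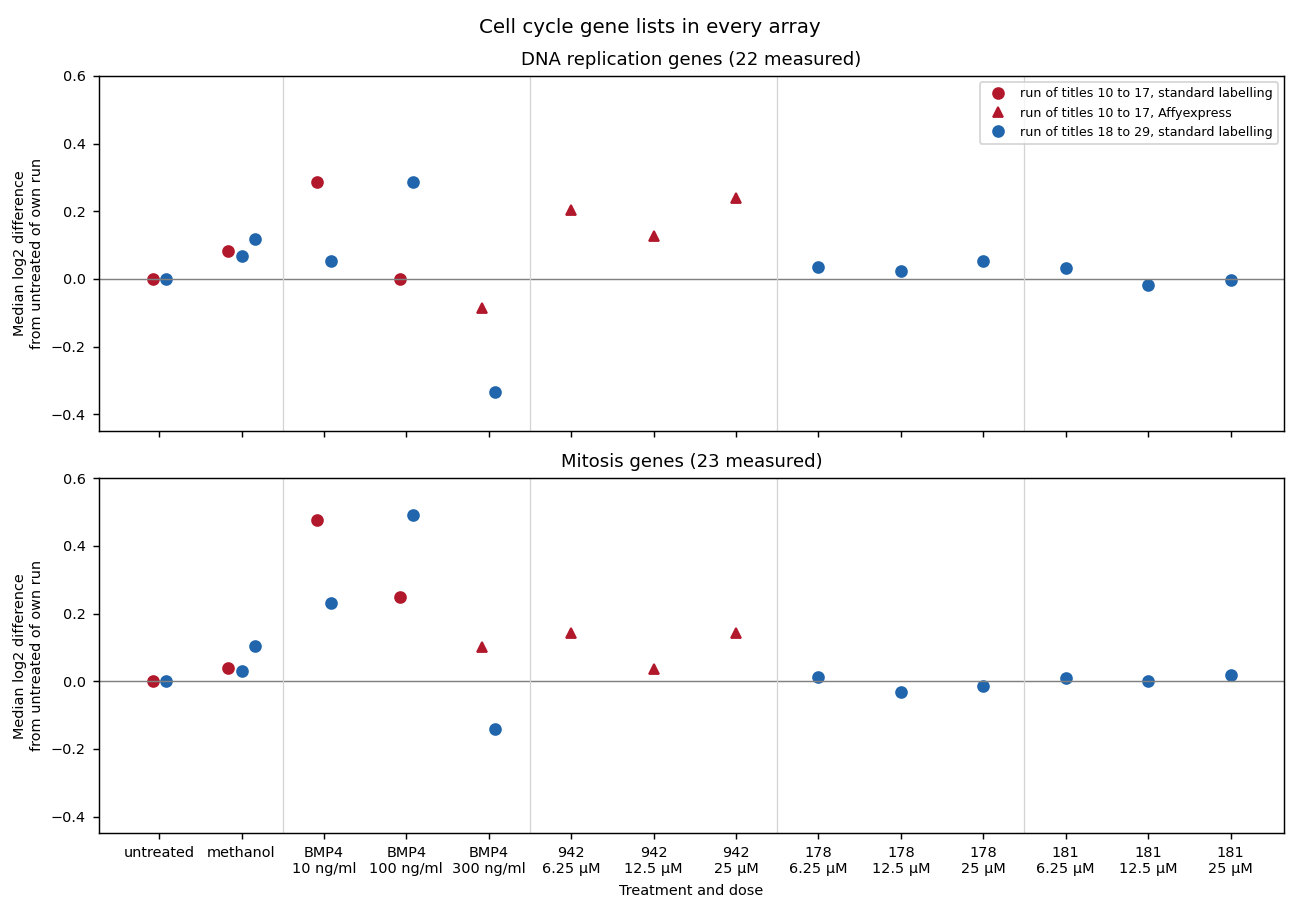
Median log2 difference of the 22 replication genes (upper panel) and the 23 mitosis genes (lower panel) from the untreated array of the same run, 1 point per array, by treatment and dose; colours are the runs and triangles the Affyexpress arrays. The mitosis medians at 10 and 100 ng/ml lie between 0.23 and 0.49, above every methanol array, and those of compounds 178 and 181 lie near 0.

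Each dose was compared with untreated cells and with methanol in 1 linear model over all genes and arrays, with a term for the run and a term for the labelling method. The 2 control groups share no array, but both comparisons of a dose use the same BMP4 arrays, and the doses share their controls. At 10 ng/ml against untreated cells 4 members were called higher (Rrm2, Ccnb2, Mki67 and Kif11) and none lower, while 1.37% of all genes were called higher and 1.32% lower. Against methanol the called members were Ccnb2, Mki67, Kif11 and Nusap1, again all higher, beside 1.18% of all genes called higher and 1.53% lower. At 100 ng/ml, 11 members were called higher and none lower against each control, 3 of replication and 8 of mitosis both times, where 6.93% of all genes were called higher and 6.97% lower against untreated cells, and 6.69% higher and 8.33% lower against methanol. The share of the mitosis genes (8 of 23) thus stood above this background, and that of the replication genes (3 of 22) was nearer to it. At 300 ng/ml the called members were all lower: 4 of replication and 1 of mitosis against untreated cells (6.30% of all genes were called lower and 5.78% higher), and 8 and 3 against methanol (7.78% of all genes were called lower and 6.11% higher). Because the labelling term takes up the Affyexpress array, the fitted values of the 300 ng/ml dose come from the standard array of the second run alone. That dose therefore adds nothing to the estimate of the spread. The SE and p-values of all comparisons with it, the slope included, borrow their spread from the other groups with several arrays. Counts of calls moved with the array left out, from 4 to 24 at 100 ng/ml against untreated cells (lowest without either untreated array, highest without either array of 10 ng/ml), and at 10 ng/ml from 0 without the first untreated array to 21 without the second array of 10 ng/ml. Without the second array of 100 ng/ml that dose had 4 members called higher against untreated cells and 3 against methanol, and Cdc6 was called lower against both. Counts of calls over all genes changed with the array left out as well. No member called in the fit of all arrays changed sign.

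Against untreated cells the mitosis median was 0.36 at 10, 0.37 at 100 and -0.15 at 300 ng/ml, and the replication median was 0.18, 0.17 and -0.40 at the same doses. The medians of all genes were -0.03, 0.00 and 0.01. Against methanol the mitosis medians were 0.28, 0.28 and -0.23 and the replication medians 0.10, 0.12 and -0.44. At an unadjusted p under 0.05, 18 of the 23 mitosis genes were higher at 10 ng/ml and 20 of 23 at 100 ng/ml than in untreated cells, and 6 and 8 of the 22 replication genes were, beside 7.09% and 12.3% of all genes. The sign of the replication medians at the lower doses rests on single arrays: without the first array of 10 ng/ml they were -0.01 against untreated cells and -0.09 against methanol, and without the second array of 100 ng/ml the median against methanol was -0.10. Without the labelling term, which brings in the Affyexpress array, the medians at 300 ng/ml were nearer 0, at -0.21 for replication against untreated cells and -0.06 for mitosis against methanol.

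Arrays were also compared with the controls of their own run without a model. At 10 ng/ml both arrays lay above every untreated and methanol array of their run for 17 of the 23 mitosis genes and 6 of the 22 replication genes (Mcm10, Pcna, Rrm1, Rrm2, Ccne1 and E2f1), and 10.5% of all genes did so. At 100 ng/ml the count was 22 of 23 mitosis genes, all but Cdc25c, and 9 of 22 replication genes, beside 20.9% of all genes. Cdt1 was the only member below all of its controls in both arrays of 100 ng/ml, where 20.5% of all genes were. The 17 mitosis genes of 10 ng/ml were above the controls in all 4 arrays of 10 and 100 ng/ml, together with Pcna, Rrm2 and E2f1 of the replication list, while 6.42% of all genes were. No member lay below them in all 4 arrays, as 8.12% of all genes did. At 300 ng/ml no mitosis gene lay above the controls in both arrays and 2 lay below (Cdc20 and Kif23), which is a smaller share than the 21.6% of all genes below. In contrast, 12 of 22 replication genes lay below the controls of their run in both arrays at 300 ng/ml, the Affyexpress array included: Mcm2, Mcm3, Mcm5, Mcm6, Mcm7, Mcm10, Cdc6, Cdt1, Cdc45, Gins1, Pola1 and Fen1. E2f1 was the only replication gene above its controls there, beside 21.1% of all genes.

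**Figure D2:**
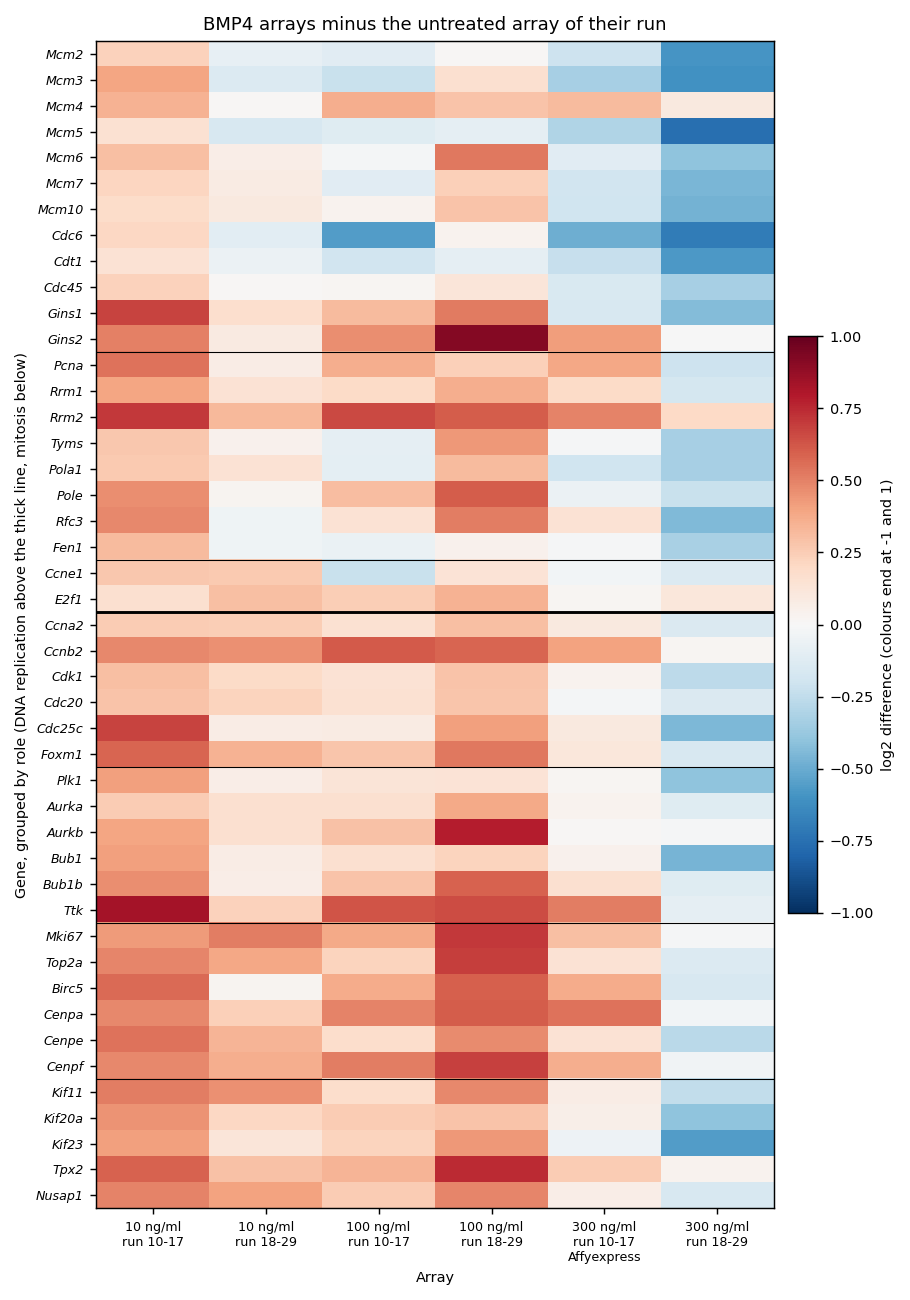
Log2 difference of each of the 45 measured members (rows, by role) from the untreated array of the same run in the 6 BMP4 arrays (columns, low to high dose, first run before second run at each dose); red is higher and blue lower. The mitosis rows are red in all 4 arrays of 10 and 100 ng/ml, and the MCM rows are blue at 300 ng/ml except Mcm4.

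The mitotic cyclins, their kinase and its regulators had 6 measured members. Ccnb2, a B-type cyclin that drives entry into mitosis, had log2 signals of 9.79 and 9.89 in untreated cells, 10.02, 9.97 and 10.06 with methanol, 10.27 and 10.34 at 10, 10.40 and 10.47 at 100 and 10.19 and 9.91 at 300 ng/ml. Here and in the sentences that follow the first value of a group is from the first run, and the last methanol value and the one before it are from the second. All 4 arrays at 10 and 100 ng/ml stood above every control array, and the 300 ng/ml array of the second run lay among the controls. Ccnb2 rose by 0.47 ± 0.07 (SE, adjusted p = 0.00600) on the log2 scale at 10 ng/ml and by 0.60 ± 0.07 (SE, adjusted p = 2.22e-04) at 100 ng/ml against untreated cells, which is 1.513-fold. Against methanol the differences were 0.30 ± 0.07 (SE, adjusted p = 0.0379) and 0.43 ± 0.07 (SE, adjusted p = 0.00107). The limma test with Benjamini-Hochberg adjustment over all 22180 genes gave these and all further adjusted p-values.

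Ccna2, the A-type cyclin of S phase and G2, measured 10.04 and 10.20 in untreated cells, 10.01, 10.15 and 10.24 with methanol, 10.29 and 10.45 at 10, 10.19 and 10.50 at 100 and 10.14 and 10.06 at 300 ng/ml. It stood above the controls of its run in the arrays of 10 and 100 ng/ml, and at 300 ng/ml it lay above them in the first run and below them in the second. The difference at 100 ng/ml was 0.25 ± 0.07 (SE, adjusted p = 0.0298) against methanol and 0.23 ± 0.07 (SE, adjusted p = 0.0691) against untreated cells, and only the first was called. Cdk1, the kinase that mitotic cyclins activate, measured 9.82 and 9.89 in untreated cells, 9.80, 9.86 and 9.94 with methanol, 10.12 and 10.08 at 10, 9.97 and 10.18 at 100 and 9.86 and 9.63 at 300 ng/ml. Its 10 and 100 ng/ml arrays exceeded all controls, and its lowest array was that of 300 ng/ml in the second run. No control comparison of Cdk1 was called (at 10 ng/ml against untreated cells 0.24 ± 0.08 (SE, adjusted p = 0.174)). Cdc20, the activator of the anaphase-promoting complex, measured 9.16 and 9.13 in untreated cells, 9.17, 9.07 and 9.11 with methanol, 9.45 and 9.35 at 10, 9.32 and 9.41 at 100 and 9.14 and 8.99 at 300 ng/ml. Cdc20 lay above its controls at the lower doses and just below them at 300 ng/ml in both runs, and was called against no control. Foxm1, a transcription factor for G2 and M phase genes, measured 7.45 and 7.78 in untreated cells, 7.55, 7.63 and 7.74 with methanol, 8.03 and 8.13 at 10, 7.73 and 8.31 at 100 and 7.57 and 7.62 at 300 ng/ml. The 2 runs differ in its control level, and within each run the arrays of 10 and 100 ng/ml stood above the controls. Foxm1 rose by 0.43 ± 0.12 (SE, adjusted p = 0.0298) at 100 ng/ml against methanol, and at 10 ng/ml the difference of 0.49 ± 0.12 (SE, adjusted p = 0.0536) was not called. Cdc25c, a phosphatase that activates Cdk1, spanned 6.46 to 7.48 over the 20 arrays and was called in no comparison.

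Of the mitotic kinases and the spindle checkpoint genes, 6 in all, Plk1 was followed array by array. Plk1, a kinase of centrosomes and mitotic entry, measured 9.43 and 9.74 in untreated cells, 9.50, 9.63 and 9.71 with methanol, 9.84 and 9.80 at 10, 9.56 and 9.88 at 100 and 9.45 and 9.34 at 300 ng/ml. Within each run the 10 and 100 ng/ml arrays lay above the controls and the 300 ng/ml array lay among them in the first run and below them in the second. At 100 ng/ml the difference from untreated cells was 0.13 ± 0.10 (SE, adjusted p = 0.478), the smallest among the mitosis genes. Aurkb, the kinase of the chromosomal passenger complex, rose by 0.54 ± 0.14 (SE, adjusted p = 0.0195) at 100 ng/ml against untreated cells and by 0.51 ± 0.12 (SE, adjusted p = 0.0161) against methanol. Ttk, the Mps1 kinase at the top of the spindle checkpoint, rose by 0.64 ± 0.16 (SE, adjusted p = 0.0192) against untreated cells, and against methanol the difference of 0.42 ± 0.15 was not called. Bub1, another checkpoint kinase, was the one gene of this group called at 300 ng/ml, where it fell to 8.27 and 8.27 in the BMP4 arrays, against 8.28, 8.70 and 8.76 with methanol (difference -0.46 ± 0.12 (SE, adjusted p = 0.0291)). In the first run that array was level with methanol. Aurka and Bub1b were called in no comparison with a control.

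Of 6 chromosome and centromere genes, 4 were called higher at 100 ng/ml against untreated cells and 3 against methanol. Mki67, a coat protein of mitotic chromosomes that is widely used to mark cycling cells, measured 9.53 and 9.62 in untreated cells, 9.52, 9.75 and 9.81 with methanol, 9.96 and 10.13 at 10, 9.91 and 10.32 at 100 and 9.83 and 9.61 at 300 ng/ml. All 4 arrays at 10 and 100 ng/ml were above all 5 control arrays, and the 300 ng/ml array of the second run lay just below the controls of its run. Mki67 rose by 0.47 ± 0.09 (SE, adjusted p = 0.0161) at 10 ng/ml and 0.54 ± 0.09 (SE, adjusted p = 0.00142) at 100 ng/ml against untreated cells, and by 0.39 ± 0.08 and 0.46 ± 0.08 against methanol (adjusted p = 0.0250 and 0.00207). Top2a, the topoisomerase that untangles sister chromosomes, measured 8.84 and 8.99 in untreated cells, 8.76, 9.25 and 9.28 with methanol, 9.33 and 9.38 at 10, 9.06 and 9.68 at 100 and 8.99 and 8.86 at 300 ng/ml. Its control level differed between runs, and the 10 and 100 ng/ml arrays exceeded the controls of their own run. Top2a rose by 0.46 ± 0.13 (SE, adjusted p = 0.0342) at 100 ng/ml against untreated cells, and the difference from methanol of 0.34 ± 0.12 (SE, adjusted p = 0.0848) was not called. Cenpa, the histone H3 variant of centromeres, measured 8.50 and 8.52 in untreated cells, 8.52, 8.45 and 8.51 with methanol, 8.98 and 8.76 at 10, 8.99 and 9.13 at 100 and 9.04 and 8.49 at 300 ng/ml. It was above all controls at 10 and 100 ng/ml and in the Affyexpress array at 300 ng/ml, and level with the controls in the other array of that dose. Cenpa rose by 0.55 ± 0.10 (SE, adjusted p = 0.00298) at 100 ng/ml against untreated cells and by 0.56 ± 0.09 (SE, adjusted p = 0.00130) against methanol. Cenpf, a kinetochore protein, measured 7.11 and 7.35 in untreated cells, 7.15, 7.34 and 7.61 with methanol, 7.59 and 7.71 at 10, 7.62 and 8.03 at 100 and 7.47 and 7.32 at 300 ng/ml. Its 4 arrays at 10 and 100 ng/ml stood above the controls of their run, with the widest gap at 100 ng/ml, where it rose by 0.60 ± 0.12 (SE, adjusted p = 0.00680) against untreated cells and by 0.51 ± 0.11 (SE, adjusted p = 0.00956) against methanol. Birc5 (survivin) and the kinetochore motor Cenpe were not called against a control; their differences from untreated cells at 100 ng/ml were 0.49 ± 0.16 and 0.32 ± 0.12.

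Motors and spindle genes were 5. Kif11, the kinesin that pushes spindle poles apart, measured 8.48 and 8.74 in untreated cells, 8.47, 8.90 and 8.90 with methanol, 8.99 and 9.19 at 10, 8.65 and 9.22 at 100 and 8.55 and 8.49 at 300 ng/ml. The 10 ng/ml arrays stood well above the controls of their run, and at 300 ng/ml the array of the second run lay below them. Kif11 rose by 0.48 ± 0.10 (SE, adjusted p = 0.0292) at 10 ng/ml against untreated cells and by 0.40 ± 0.09 (SE, adjusted p = 0.0487) against methanol. Kif20a, a kinesin of the central spindle, measured 8.88 and 9.19 in untreated cells, 8.97, 9.25 and 9.30 with methanol, 9.33 and 9.40 at 10, 9.13 and 9.48 at 100 and 8.94 and 8.79 at 300 ng/ml. It was above the controls at 10 and 100 ng/ml, and it fell by 0.47 ± 0.11 at 300 ng/ml against methanol (adjusted p = 0.0118). Kif23, which with Racgap1 builds the midbody in cytokinesis, measured 8.00 and 8.39 in untreated cells, 8.05, 8.45 and 8.55 with methanol, 8.41 and 8.52 at 10, 8.22 and 8.83 at 100 and 7.95 and 7.84 at 300 ng/ml. At 300 ng/ml it was lower than in any untreated, methanol or other BMP4 array of the same run, with a difference of -0.56 ± 0.15 (SE, adjusted p = 0.0309) from untreated cells and -0.64 ± 0.14 (SE, adjusted p = 0.00832) from methanol. Tpx2, an activator of Aurka on spindle microtubules, rose by 0.54 ± 0.14 (SE, adjusted p = 0.0209) at 100 ng/ml against untreated cells. Nusap1, which bundles spindle microtubules, rose against methanol at both 10 ng/ml (0.47 ± 0.11 (SE, adjusted p = 0.0351)) and 100 ng/ml (0.39 ± 0.11 (SE, adjusted p = 0.0252)).

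**Figure D3:**
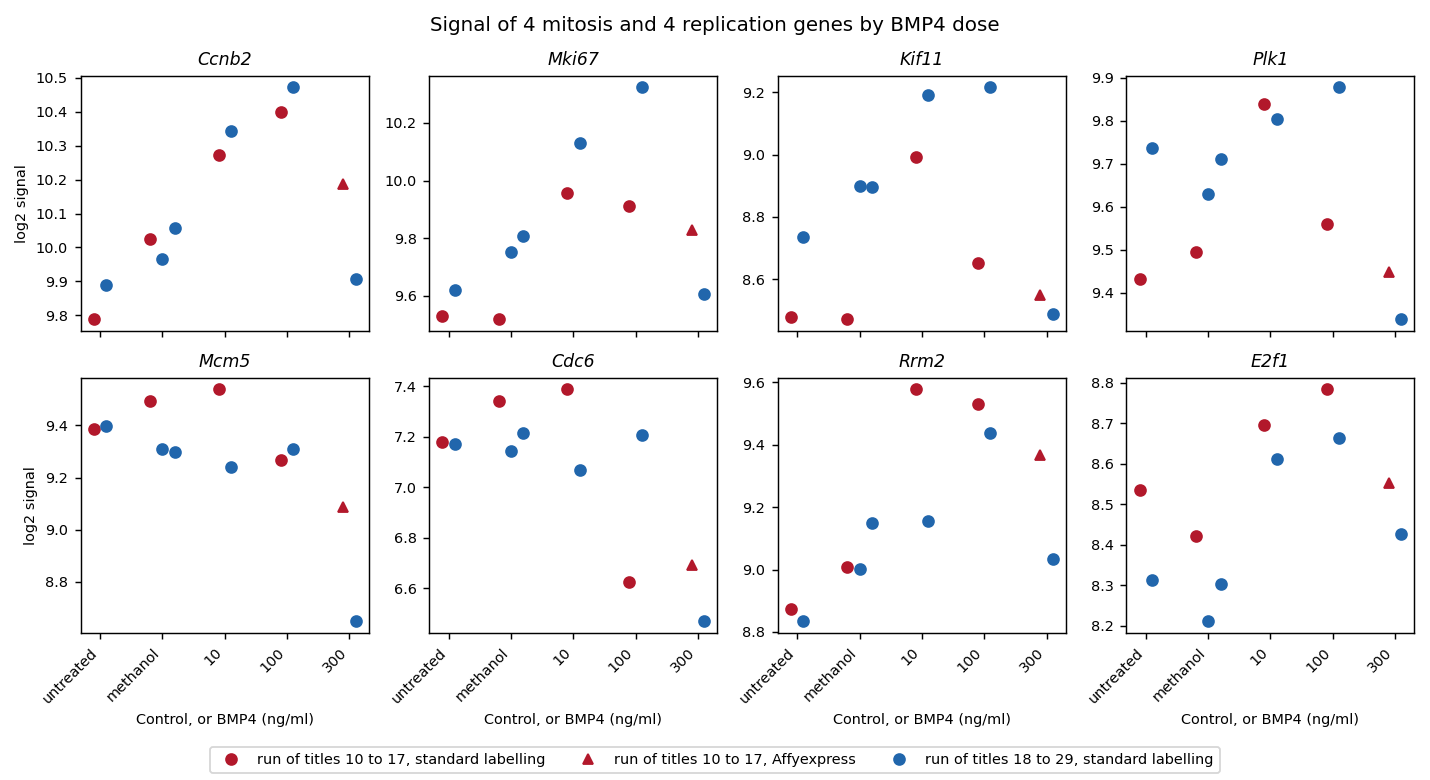
Log2 signal of Ccnb2, Mki67, Kif11 and Plk1 (mitosis) and of Mcm5, Cdc6, Rrm2 and E2f1 (replication) in every untreated, methanol and BMP4 array, by dose; colours are the runs and the triangle is the Affyexpress array. Ccnb2 and Mki67 are above all controls at 10 and 100 ng/ml, and Mcm5 and Cdc6 reach their lowest value at 300 ng/ml in the second run; each panel has its own axis, which does not start at 0.

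Origin licensing and helicase genes were 12 in number, and most of them stood below the controls of their run in both arrays of 300 ng/ml. Mcm5, a subunit of the MCM helicase, measured 9.39 and 9.40 in untreated cells, 9.49, 9.31 and 9.30 with methanol, 9.54 and 9.24 at 10, 9.27 and 9.31 at 100 and 9.09 and 8.65 at 300 ng/ml. Both 300 ng/ml arrays lay below every other array listed, by a wider margin in the second run, and the 10 and 100 ng/ml arrays lay around the controls. Mcm5 fell by 0.69 ± 0.12 (SE, adjusted p = 0.00299) at 300 ng/ml against untreated cells, and by 0.68 ± 0.11 (adjusted p = 0.00165) against methanol. Mcm2, another subunit, measured 8.68 and 8.99 in untreated cells, 8.75, 8.81 and 8.89 with methanol, 8.92 and 8.91 at 10, 8.57 and 9.01 at 100 and 8.48 and 8.41 at 300 ng/ml. The 300 ng/ml arrays were below all controls, with a difference of -0.53 ± 0.14 (SE, adjusted p = 0.0297) from untreated cells and -0.48 ± 0.13 (SE, adjusted p = 0.0304) from methanol. Cdc6, which loads the helicase, measured 7.18 and 7.17 in untreated cells, 7.34, 7.14 and 7.21 with methanol, 7.39 and 7.07 at 10, 6.62 and 7.21 at 100 and 6.69 and 6.47 at 300 ng/ml. Besides both arrays of 300 ng/ml the first array of 100 ng/ml was low, while the second array of 100 ng/ml lay with the controls. Cdc6 differed by -0.77 ± 0.21 (SE, adjusted p = 0.0313) from methanol at 300 ng/ml, and its difference from untreated cells, -0.71 ± 0.23 (SE, adjusted p = 0.0700), was not called. Cdt1, the partner of Cdc6 in loading, measured 7.73 and 7.75 in untreated cells, 7.73, 7.80 and 7.83 with methanol, 7.87 and 7.69 at 10, 7.53 and 7.66 at 100 and 7.50 and 7.18 at 300 ng/ml. It was below its controls in both arrays of 100 and of 300 ng/ml, and at 300 ng/ml the differences were -0.57 ± 0.14 (SE, adjusted p = 0.0180) from untreated cells and -0.62 ± 0.13 (SE, adjusted p = 0.00634) from methanol.

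Other genes of the helicase were lower at 300 ng/ml too. Mcm7 was called lower against both controls (-0.48 ± 0.14 (SE, adjusted p = 0.0471) from untreated cells), and Mcm3, Mcm6 and the GINS subunit Gins1 only against methanol (-0.70 ± 0.20, -0.59 ± 0.17 and -0.69 ± 0.20). Mcm4 lay above its controls in the first run and among them in the second, with 9.55 and 9.52 at 300 ng/ml in the BMP4 arrays, against 9.25, 9.50 and 9.65 with methanol and 9.23 and 9.42 in untreated cells, a difference from methanol of 0.00 ± 0.13 with a 95% interval of -0.28 to 0.29. The median difference of the 12 genes at 300 ng/ml was -0.48 from untreated cells and -0.59 from methanol. Gins2, another GINS subunit, was the one gene of the 12 called higher at 100 ng/ml, by 0.69 ± 0.15 (SE, adjusted p = 0.0105) against untreated cells and 0.48 ± 0.14 (SE, adjusted p = 0.0403) against methanol. Mcm10 and Cdc45, which act when the helicase fires, were called against no control.

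Of 8 genes of the replication fork and of nucleotide supply, only Rrm2 was called against a control. Rrm2, the regulated subunit of ribonucleotide reductase, measured 8.87 and 8.83 in untreated cells, 9.01, 9.00 and 9.15 with methanol, 9.58 and 9.16 at 10, 9.53 and 9.44 at 100 and 9.37 and 9.04 at 300 ng/ml. All 4 arrays at 10 and 100 ng/ml lay above every control array, although the second array of 10 ng/ml exceeded the highest methanol array by little. Rrm2 rose by 0.51 ± 0.12 (SE, adjusted p = 0.0390) at 10 ng/ml and by 0.63 ± 0.12 (SE, adjusted p = 0.00314) at 100 ng/ml against untreated cells, and by 0.42 ± 0.11 (SE, adjusted p = 0.0200) at 100 ng/ml against methanol. Pcna, the sliding clamp, measured 9.42 and 9.93 in untreated cells, 9.57, 9.81 and 9.95 with methanol, 9.96 and 10.00 at 10, 9.79 and 10.17 at 100 and 9.81 and 9.72 at 300 ng/ml. Its untreated arrays differed by more than any BMP4 array differed from the methanol of its run, and no comparison of Pcna with a control was called. Rrm1, Tyms, Pola1, Pole, Rfc3 and Fen1 had differences from untreated cells between -0.01 and 0.46 at 100 ng/ml and between -0.43 and -0.15 at 300 ng/ml. E2f1, the transcription factor that activates replication genes, measured 8.54 and 8.31 in untreated cells, 8.42, 8.21 and 8.30 with methanol, 8.70 and 8.61 at 10, 8.78 and 8.66 at 100 and 8.55 and 8.43 at 300 ng/ml. Both arrays of each dose were above the controls of their run, and E2f1 rose by 0.30 ± 0.09 (SE, adjusted p = 0.0494) at 100 ng/ml against untreated cells and by 0.39 ± 0.08 (SE, adjusted p = 0.00790) against methanol. Ccne1, the cyclin that activates Cdk2 at the G1/S border, was higher than the controls of its run at 10 ng/ml in both arrays and was called in no comparison.

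A comparison of the doses with each other uses no control array. In the fit all 45 members were lower at 300 than at 10 ng/ml. Of these, 21 were called, 7 of replication and 14 of mitosis, where 4.89% of all genes were called lower and 3.80% higher. Not every pair of arrays followed the fit. Mcm4 measured 9.43 at 10 and 9.52 at 300 ng/ml in the second run, and Cenpa 8.98 and 9.04 in the first. The median difference was -0.58 for replication and -0.55 for mitosis, beside 0.04 for all genes. These fitted differences too rest on the standard array at 300 ng/ml, and the run term sets it against both arrays of 10 ng/ml. Kif23 had the largest fall (-0.82 ± 0.15 (SE, adjusted p = 0.00525)), followed among called genes by Gins1 (-0.82 ± 0.22 (SE, adjusted p = 0.0388)) and Kif11 (-0.79 ± 0.13 (SE, adjusted p = 0.00291)). The called replication genes were Mcm2, Mcm5, Mcm7, Mcm10, Cdt1, Gins1 and Pola1. The called mitosis genes were Ccna2, Ccnb2, Cdk1, Cdc20, Foxm1, Plk1, Bub1, Mki67, Top2a, Cenpe, Kif11, Kif20a, Kif23 and Nusap1. Mcm4 (-0.06 ± 0.14) and E2f1 (-0.15 ± 0.12) changed least. A slope on log2 dose over 10, 100 and 300 ng/ml was below 0 for all 45 genes, and 18 were called, 5 of replication and 13 of mitosis, beside 5.64% of all genes with a called negative slope and 4.33% with a positive one. The steepest called slopes were those of Kif11 (-0.14 ± 0.03 per doubling of dose) and Kif23 (-0.14 ± 0.03). Between 100 and 10 ng/ml no member was called, while 2.29% of all genes were called higher and 3.53% lower. At an unadjusted p under 0.05, Gins2 was higher there (0.39) and Ccne1 lower (-0.31), beside 8.16% of all genes higher and 8.98% lower, and the medians were -0.01 for replication and 0.02 for mitosis. The lowest differences were those of Cdc6 (-0.31), Ccne1 (-0.31) and Cdt1 (-0.19), and the highest those of Gins2 (0.39), Aurkb (0.26) and Pole (0.21).

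**Figure D4:**
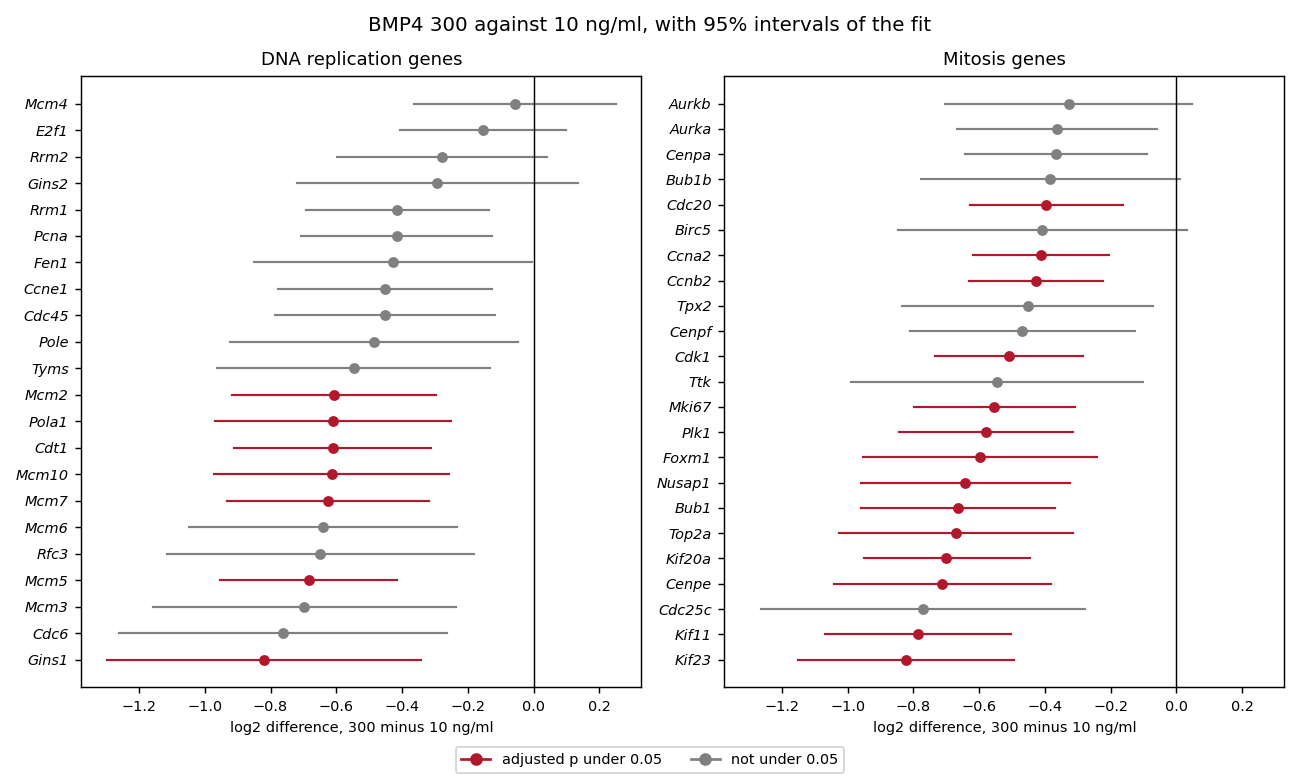
Log2 difference between 300 and 10 ng/ml of BMP4 for each measured member, with its 95% interval from the fit over all genes and arrays; red marks an adjusted p under 0.05. Every point lies below 0, from -0.06 for Mcm4 to -0.82 for Kif23, and the 300 ng/ml side rests on 1 array.

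Further genes of the same processes, taken from lists of other replication genes (33 of 35 measured) and mitosis genes (38 of 40 measured), were fitted in the same model. Of the further mitosis genes, 20 of 38 were called higher at 100 ng/ml against untreated cells and 13 of 38 against methanol, with medians of 0.45 and 0.33. Those with the smallest adjusted p against untreated cells were Ckap2, a spindle protein (0.84 ± 0.12 (SE, adjusted p = 7.10e-04)), the checkpoint gene Mad2l1 (0.70 ± 0.11), Cdca3 (0.68 ± 0.11) and 3 subunits of the Ndc80 complex of kinetochores, Nuf2 (0.72 ± 0.14), Spc24 (0.69 ± 0.13) and Spc25 (0.67 ± 0.14). These shares stood above the 6.93% and 6.69% of all genes called higher. At 300 ng/ml 3 of 38 were called lower against untreated cells, a share near the 6.30% of all genes. Against methanol 5 of 38 were called lower, a share above the 7.78% of all genes. The further replication genes had 2 of 33 called higher at 100 ng/ml against untreated cells, a share near that of all genes, the primase subunit Prim2 (0.55 ± 0.11 (SE, adjusted p = 0.00440)) and the origin recognition subunit Orc6 (0.40 ± 0.12 (SE, adjusted p = 0.0498)). Against methanol Prim2 was called higher (0.40 ± 0.10 (SE, adjusted p = 0.0155)) and the origin recognition subunit Orc2 lower (-0.44 ± 0.11 (SE, adjusted p = 0.0162)). At 300 ng/ml 2 were called lower against untreated cells, again near the share of all genes, Uhrf1, which recruits the maintenance methylase to new DNA (-0.77 ± 0.18 (SE, adjusted p = 0.0136)), and Ticrr, a partner of the helicase activators (-0.56 ± 0.17 (SE, adjusted p = 0.0493)). Both were also called lower against methanol, together with Orc2.

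G1 cyclins, CDKs, their inhibitors and the pocket protein and E2F family, 22 genes outside the member list, held single differences that were larger than that of any member. At 100 ng/ml 4 were called higher and 7 lower against untreated cells, beside 6.93% and 6.97% of all genes, and at 300 ng/ml 2 were called higher and 8 lower, beside 5.78% and 6.30%. E2f2 differed by -2.36 ± 0.20 (SE, adjusted p = 1.57e-05) at 100 ng/ml and -2.52 ± 0.25 (SE, adjusted p = 5.52e-05) at 300 ng/ml, and E2f8, a repressor of the family, differed by -1.04 ± 0.18 and -1.87 ± 0.22. E2f4, which acts with pocket proteins in resting cells, differed by -1.10 ± 0.10 and -1.15 ± 0.13, and Rb1 by -0.85 ± 0.15 and -1.09 ± 0.19. Cdkn1a, the p21 inhibitor that rises when myoblasts leave the cycle, differed by -0.59 ± 0.10 (SE, adjusted p = 0.00176) and -0.71 ± 0.13 (SE, adjusted p = 0.00259) at these doses. Other inhibitors were called higher against untreated cells. Cdkn1b rose by 0.44 ± 0.11 at 100 and 0.50 ± 0.14 at 300 ng/ml, and Cdkn2c by 0.74 ± 0.12 at 10 and 0.49 ± 0.12 at 100 ng/ml. Cyclin D3 (Ccnd3) was lower at both doses (-0.59 and -0.85), and Ccnd1 (-1.002) and Cdk6 (-1.31) were called lower at 300 ng/ml. Myc rose by 0.88 ± 0.12 (SE, adjusted p = 4.20e-04) and 1.06 ± 0.15 (SE, adjusted p = 6.60e-04). Each of these values at 300 ng/ml again rests on the standard array.

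Muscle differentiation and the BMP response also differed between these arrays, and their part in the results was not tested. All 12 markers of differentiating muscle were called lower at 100 and at 300 ng/ml against each control. The summed signal of the 12 on the linear scale was 22592 to 24946 in untreated cells, 19898 to 25869 with methanol, 15790 to 22271 at 10, 1602 to 3015 at 100 and 1180 to 1312 at 300 ng/ml. The 6 myoblast markers summed to 6760 to 7134 in untreated cells, 6861 to 7112 with methanol, 6636 to 6882 at 10, 3598 to 4977 at 100 and 2937 to 3320 at 300 ng/ml. The first array of 10 ng/ml had a muscle sum of 15790, against 25869 with methanol and 24946 in untreated cells of its run. The second had 22271, against 23199 and 19898 with methanol and 22592 in untreated cells of its run. The first array, which had the larger medians of both cell cycle lists, thus stood well below its controls in muscle markers and the second lay among them, and 3 of the 12 markers were called lower at 10 ng/ml against untreated cells. At 100 ng/ml the order was the other way. The muscle sum was 1602 in the first array and 3015 in the second, and the second had the larger medians of both lists. Between 10 and 100 ng/ml the muscle sum was lower at the higher dose in both runs, while the fitted mitosis median against untreated cells was 0.36 and 0.37 at these doses. The 7 BMP response genes summed to 1379 and 1614 in untreated cells, 1497, 1663 and 1786 with methanol, 3360 and 1319 at 10, 5385 and 2572 at 100 and 6730 and 6440 at 300 ng/ml (first run before second run). This sum, though not each gene in it, was highest at 300 ng/ml, where all 45 members stood lower than at 10 ng/ml in the fit. In the second array of 10 ng/ml the sum (1319) lay below every control array of its run. The first and second array of 10 ng/ml differed in Id1, a direct BMP target, with 9.04 and 7.04 in the BMP4 arrays, against 7.02 and 7.29 in untreated cells and 7.33, 7.20 and 7.37 with methanol. At 100 ng/ml Id1 measured 8.71 and 7.80 in the BMP4 arrays of the first and second run. The array with the higher Id1 had the larger medians of both lists at 10 ng/ml and the smaller ones at 100 ng/ml.

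Methanol against untreated cells gave no called member and no called gene at all with limma. At an unadjusted p under 0.05 there was 1 member, Ccnb2, which was higher (0.17 ± 0.07), as were 2.41% of all genes. The median difference was 0.06 for the replication and 0.08 for the mitosis genes, beside 0.00 for all genes, and 33 of the 45 members stood above 0. The lowest differences were those of E2f1 (-0.09), Mcm2 (-0.05) and Cdc20 (-0.03), and the highest those of Gins1 (0.29), Ttk (0.22) and Rrm2 (0.22). Gins1, the dimmest member and named here for its largest difference, measured 5.67, 5.74 and 5.80 with methanol, against 5.39 and 5.49 in untreated cells. E2f1 measured 8.42, 8.21 and 8.30 with methanol, against 8.54 and 8.31 in untreated cells, and the groups overlapped. The 95% intervals of the members ran from -0.30 to 0.64.

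None of the 3 compounds had a called member against methanol or untreated cells with limma, and the share of all genes called was 0 or 0.00451% in each comparison. Compound 178 had median differences from methanol of -0.04 for replication and -0.08 for mitosis genes, and 1 member, Kif11, was lower at an unadjusted p under 0.05, as were 1.24% of all genes. The lowest differences were those of Gins1 (-0.27), Kif11 (-0.24) and Ttk (-0.24), and the highest those of Ccne1 (0.08), Plk1 (0.05) and E2f1 (0.04). Kif11 measured 8.90 and 8.90 with methanol in the second run and 8.66, 8.57 and 8.68 at 6.25, 12.5 and 25 µM of compound 178, so that all 3 doses lay below methanol and near the untreated array of the run at 8.74. Gins1 measured 5.74 and 5.80 with methanol and 5.38, 5.35 and 5.72 at the rising doses of compound 178. Ttk measured 7.51 and 7.81 with methanol and 7.45, 7.34 and 7.40 at the rising doses of compound 178. Ccne1 measured 7.48 and 7.46 with methanol and 7.59, 7.44 and 7.66 at the rising doses of compound 178. Gins1 was low at the lower doses and level with methanol at 25 µM, Ttk was below the lower methanol array, and Ccne1 varied around methanol without order by dose. Compound 181 had medians of -0.09 and -0.04, and no member had an unadjusted p under 0.05, where 2.76% of all genes were higher and 2.58% lower. The lowest differences were those of Ttk (-0.23), Fen1 (-0.16) and Cdt1 (-0.16), and the highest those of Foxm1 (0.09), Cdc20 (0.07) and Rrm2 (0.07). Ttk measured 7.51 and 7.81 with methanol and 7.49, 7.46 and 7.26 at the rising doses of compound 181, all of them below the lower methanol array. Foxm1 measured 7.63 and 7.74 with methanol and 7.79, 7.73 and 7.96 at the rising doses of compound 181. Foxm1 was above both methanol arrays at the lowest and highest dose and level with the higher one at 12.5 µM. The 95% intervals of all members lay between -0.59 and 0.32 for compound 178 and between -0.53 and 0.33 for compound 181.

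Compound 942 shares its run with the first arrays of the controls and its labelling method with none of them. Read against untreated cells of its run, the replication median was 0.20, 0.13 and 0.24 at 6.25, 12.5 and 25 µM, and the mitosis median 0.14, 0.04 and 0.14. Pcna was the member farthest above methanol in these arrays, with 9.57 with methanol and 9.92, 10.00 and 10.03 at the rising doses. With the labelling term, which is estimated from the 2 arrays of BMP4 at 300 ng/ml, the fitted medians against untreated cells were -0.10 and -0.24. Against methanol they were -0.16 and -0.34 with the term and 0.073 and -0.002 without it. With the term Pcna differed from methanol by 0.02 ± 0.17. The lowest differences from methanol in that fit were those of Cdc25c (-0.54), Kif20a (-0.48) and Top2a (-0.45), and the highest those of Ccne1 (0.05), Pcna (0.02) and E2f1 (-0.03). At an unadjusted p under 0.05, 7 members were lower with this term, beside 1.35% of all genes. The direction of compound 942 therefore depends on the labelling term, except for the mitosis median against methanol, which was near 0 without it. The treatment and the labelling method cannot be told apart from its own arrays.

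The 3 pairs of compounds were compared over matched doses, with adjustment over all genes within each pair, and no member was called in any of them. Compounds 181 and 178 lie in the same run and have the same labelling. The median difference of 181 minus 178 was 0.03, -0.03 and -0.09 for the replication genes and 0.04, 0.08 and -0.02 for the mitosis genes at 6.25, 12.5 and 25 µM. Over the doses the largest differences were those of Gins1 (0.27 ± 0.14) and Ccne1 (-0.19 ± 0.10), and the 95% intervals of the 45 members lay between -0.41 and 0.58. Compound 942 minus 178 and minus 181 had medians of -0.19 and -0.18 over the 45 members, with intervals from -1.16 to 0.77 and from -1.15 to 0.69, and both carry the labelling term. Between 25 and 6.25 µM no member was called for any compound, and 1 member had an unadjusted p under 0.05, Ccnb2 for compound 178 (-0.25), where 1.28% of all genes were lower. A missing call at 1 array per dose does not show that the compounds act alike.

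**Figure D5:**
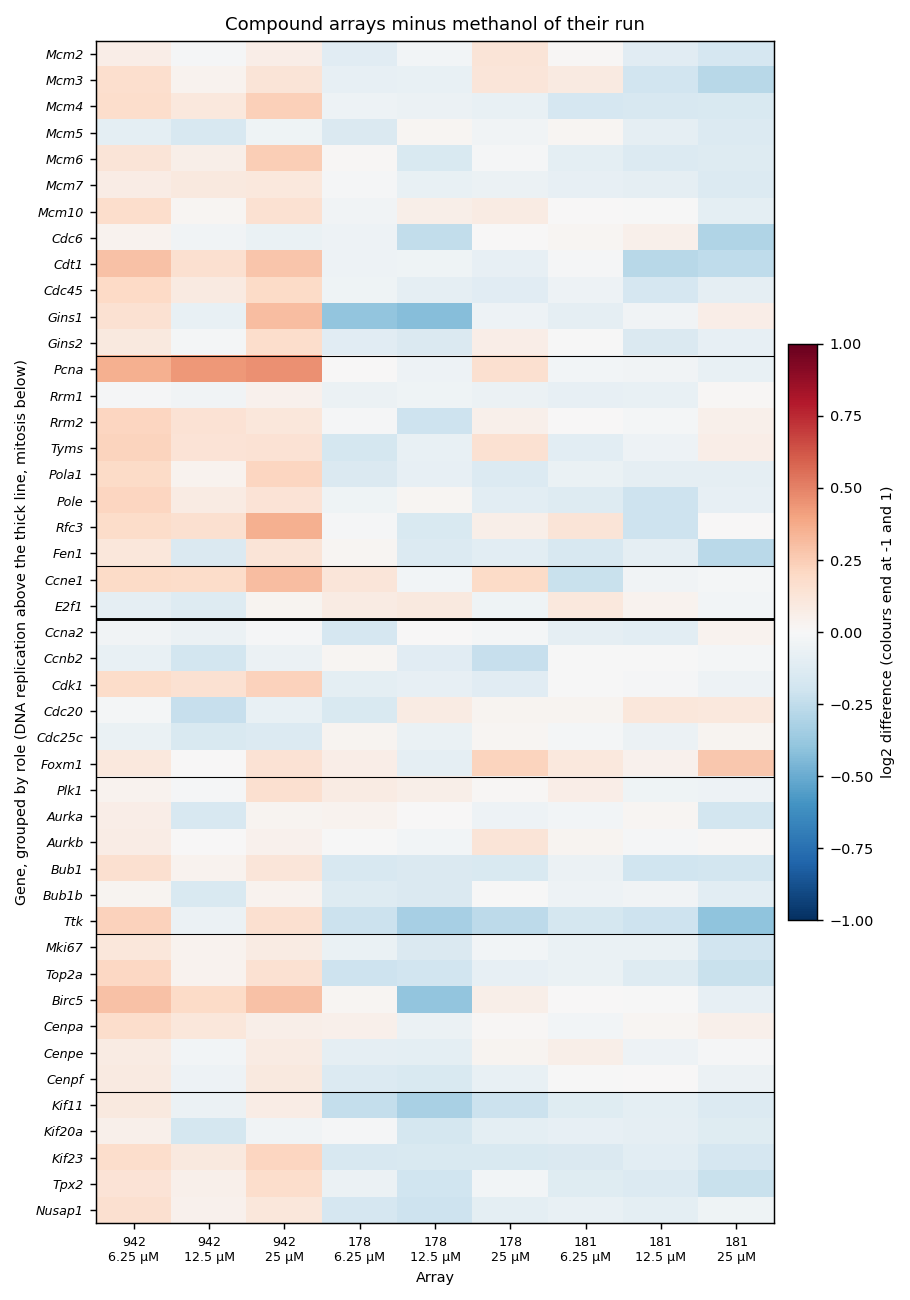
Log2 difference of each of the 45 measured members (rows, by role) from methanol of the same run in the 9 compound arrays (columns, low to high dose within each compound), on the same colour scale as for BMP4. The columns of compound 942, which are Affyexpress arrays, are mostly pale red, and those of compounds 178 and 181 are near white or pale blue.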

How the data were processed

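The deposited table gives a log2 signal for each probe set in each array, and these signals entered the tests without further change. The authors made them with RMA (background correction, quantile normalization and probe summary) in Partek 6.5, per the submitters' processing notes. Per the labels' protocols, 3 samples were labelled by both methods to allow batch correction. The sources used here do not say whether it was applied. Of 41345 probe sets, 23521 carried 1 symbol in the platform annotation and 1814 several. A limma model (limma 3.58.1, R 4.3.3) gave each treatment and dose its own mean and had terms for run and labelling method (4 residual degrees of freedom, median prior 7.38, trend on the mean signal). Genes were called at an adjusted p under 0.05, with Benjamini-Hochberg adjustment over 22180 genes. The single array of a compound dose was assumed to vary like groups with several. Values in every untreated, methanol and BMP4 array are given for 14 fixed members that were measured and the 6 other members with the smallest adjusted p in a BMP4 comparison, and the 3 lowest and highest members are named for main comparisons without a call. No pair of arrays of a group shared more than 0.0363% of their values. The number of arrays limits the precision. The members and lists were chosen with earlier results of these data known.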

Additional observations from a re-analysis of the deposited data

How the results depend on the processing

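None of the 85 calls of a member in a comparison changed sign under any alternative that gave it a value, but counts of calls depended on the settings. Of these calls, 62 were lost without the run term, 59 without a trend in the moderation, 26 with median centring, 24 without the labelling term, 4 with the mean of all probe sets of a gene, 3 with untreated cells and methanol as 1 group, 1 with a repeated quantile normalization and 0 without genes of a mean signal under 5. Against untreated cells and against methanol, the called members without the run term were 1 and 0 for the dose of 10 ng/ml, 6 and 5 for 100 ng/ml and 2 and 4 for 300 ng/ml, with 2 for the slope and 3 for 300 minus 10 ng/ml. Without the trend they were 0 and 0, 6 and 5, and 2 and 4, with 5 for the slope and 4 for 300 minus 10 ng/ml. Median centring gave 2 and 0 for 10 ng/ml, 7 and 5 for 100 ng/ml, and 2 for 300 ng/ml against untreated cells. One joint control group gave 9 for 10 ng/ml, 20 for 100 ng/ml and 12 for 300 ng/ml. Calls over all genes moved as well. At these doses the joint group had 953, 3943 and 3402 of all genes called. The reported fit had 595, 3082 and 2678 against untreated cells, and the fit without the run term 244, 2030 and 1770. Repeated quantile normalization gave 7 at 10 ng/ml against methanol, and 17 and 18 at 100 ng/ml, and the filter on dim genes gave 7 at 10 ng/ml against methanol. Without the labelling term there were 2 and 2 at 10 ng/ml and 7 at 300 ng/ml against methanol. This setting moved the medians to -0.207 (replication, 300 ng/ml minus untreated), -0.059 (mitosis, 300 ng/ml minus methanol), and -0.379 and -0.336 (replication and mitosis, 300 minus 10 ng/ml). For compound 942 it moved the replication and mitosis medians to 0.073 and -0.002 against methanol, 0.160 and 0.070 against untreated cells, 0.105 and 0.044 against compound 178, and 0.137 and 0.026 against compound 181. The cause of these changes was not tested.

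Leaving out 1 untreated, methanol or BMP4 array at a time gave 0 to 21 called members at 10 ng/ml against untreated cells and 0 to 8 against methanol, 4 to 24 and 3 to 20 for 100 ng/ml, 1 to 11 and 4 to 19 for 300 ng/ml, 11 to 33 for the slope, 15 to 36 for 300 minus 10 ng/ml and 0 to 2 for 100 minus 10 ng/ml. The replication median ran from -0.014 to 0.369 at 10 ng/ml against untreated cells and from -0.086 to 0.283 against methanol, from -0.100 to 0.240 at 100 ng/ml against methanol, from -0.203 to 0.120 for 100 minus 10 ng/ml and from -0.772 to -0.400 for 300 minus 10 ng/ml, where the mitosis median ran from -0.759 to -0.447. Without the standard array of 300 ng/ml that dose, and without the Affyexpress array of 300 ng/ml compound 942, could not be estimated with the labelling term. Counts of calls over all genes changed with the array left out too, though not always in the direction of the members. The largest shift of the median of all genes under another normalization was 0.080. The labels give no replicate numbers, and the run, read from the title numbers, entered as a block in the fit that is reported.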
